A study of Mus musculus with 8 samples.

Results

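Atf4 encodes a transcription factor of the integrated stress response, and the report follows it and 9 of its known target genes, Atf3, Ddit3, Trib3, Asns, Chac1, Psat1, Phgdh, Slc7a11 and Slc3a2, across 8 mouse embryonic stem cell lines. The group was chosen by the measured level of Atf4, which was high in tNT lines 4 to 6 only, so the levels of Atf4 are a description with no test. The targets were taken from what is known of them. The platform annotation gives these 10 genes 13 of the 25697 probes of the array. Of the 10 genes, 8 were above background on enough arrays to be among the 8816 tested, and Slc7a11 and Slc3a2 were not.

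When protein folding, amino acid supply, haem or double-stranded RNA signals activate one of the kinases that phosphorylate the translation factor eIF2, most protein synthesis falls while the Atf4 messenger RNA is translated more. ATF4 protein, usually paired with a C/EBP protein, then binds sites near genes for amino acid synthesis and transport, for charging of tRNA, and for feedback and cell death. Atf4 is also controlled through its transcript level, which is what an expression array measures.

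Total RNA of each line was measured on its own Illumina bead array, with 6 lines made by tetraploid nuclear transfer and 2 by nuclear transfer alone, called tNT and NT lines here. Their labels give tetraploidy as present in the former and absent in the latter. Nuclear transfer puts a somatic nucleus into an egg without its own nucleus, and the title of the series speaks of 2 somatic nuclei in one ooplasm. All 8 lines are labelled mixed strain, and the design text notes double sedimentation for each, a step it does not explain. It also gives a number that is read here as passage: 17, 19 and 18 for tNT lines 1, 2 and 5, 25 for lines 3 and 6 and 29 for line 4, with none for NT lines. The sources used here name no donor cell type, and nothing says that RNA came from more than 1 culture per line, so a p-value covers only how the lines vary among themselves.

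Between 10449 and 10969 probes were above background on an array. All 8 stem cell markers that were looked up (among them Pou5f1, Sox2, Nanog and Esrrb) were measured, with a summed normalized level of 15.65 to 15.87 on the log2 scale. The sum of linear levels is led by the brightest markers, such as Dppa5a at 14.64 to 14.84, and some single markers varied more. Zfp42 measured 11.12 to 11.66 in tNT lines 4 to 6 and 11.53 to 12.29 in the other lines. Tdgf1 ranged from 6.21 to 7.58 over all lines. Of 10 fibroblast markers, whose cells often serve as feeders, 4 were measured, with a summed level of 9.56 to 9.99 where Atf4 was high (tNT lines 4 to 6) and of 9.75 to 10.81 in the other 5 lines. A probe of Col1a1, Dcn and Thy1 was above background on 8 of 8 arrays each and that of Lum on 6, those of Prrx1 and Twist2 on at most 1, and those of Col1a2, Col3a1 and Postn on 0. The part of fibroblasts in the results was not tested, and in RNA from whole cultures a smaller share of expressing cells cannot be told apart from less RNA per cell.

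The promoters of 5 of the 10 genes hold the core of the site that ATF4 and C/EBP proteins share, written TGATGNAA and searched on both strands of the window from 250 bases before to 50 bases after the gene start. These are Chac1, Trib3, Atf3, Asns and Slc7a11, and the motif was in the window of 4.51% of 27025 genes and of 2.74% of the tested genes that have one (RefSeq, GRCm38.p6). The windows of Atf4, Ddit3, Psat1, Phgdh and Slc3a2 do not hold these letters. Shown first, 5' to 3' with the motif in capitals, are the windows of Chac1 and Trib3, whose levels followed Atf4 over the lines, and of Asns and Atf3, whose levels did not.
Chac1, chr2:119350992-119351291, plus strand: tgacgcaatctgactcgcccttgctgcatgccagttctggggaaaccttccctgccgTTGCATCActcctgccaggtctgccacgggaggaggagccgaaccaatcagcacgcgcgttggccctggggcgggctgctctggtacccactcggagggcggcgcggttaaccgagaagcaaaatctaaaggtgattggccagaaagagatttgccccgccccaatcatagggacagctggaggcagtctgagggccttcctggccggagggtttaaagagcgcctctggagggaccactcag
Trib3, chr2:152344011-152344310, minus strand: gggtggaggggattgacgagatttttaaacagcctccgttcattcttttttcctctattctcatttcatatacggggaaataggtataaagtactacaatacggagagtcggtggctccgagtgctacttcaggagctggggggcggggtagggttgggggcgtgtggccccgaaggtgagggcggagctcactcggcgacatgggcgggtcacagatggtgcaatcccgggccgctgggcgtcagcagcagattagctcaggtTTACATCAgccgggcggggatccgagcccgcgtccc
Asns, chr6:7693160-7693459, minus strand: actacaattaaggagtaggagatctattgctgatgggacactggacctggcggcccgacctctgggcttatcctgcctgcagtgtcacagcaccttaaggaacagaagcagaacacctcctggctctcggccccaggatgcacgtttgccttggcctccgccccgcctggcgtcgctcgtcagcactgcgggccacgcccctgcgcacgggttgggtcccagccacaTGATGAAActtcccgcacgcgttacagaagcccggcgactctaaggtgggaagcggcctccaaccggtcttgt
Atf3, chr1:191183284-191183583, minus strand: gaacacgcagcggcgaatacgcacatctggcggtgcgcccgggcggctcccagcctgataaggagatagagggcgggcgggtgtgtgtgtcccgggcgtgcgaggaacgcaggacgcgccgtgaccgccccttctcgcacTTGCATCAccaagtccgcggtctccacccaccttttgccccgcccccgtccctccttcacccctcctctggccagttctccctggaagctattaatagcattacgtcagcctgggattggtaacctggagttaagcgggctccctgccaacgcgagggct
In Chac1 and Atf3 the capitals are TTGCATCA, the reverse complement of TGATGCAA, and begin 193 and 110 bases before the start. In Asns, TGATGAAA reads along the gene from 23 bases before the start. In Trib3 the motif lies on the opposite strand and begins at base 15 of the transcript. A match in these letters is a description of the sequence and not a measured binding site.

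Atf4 had normalized log2 intensities of 10.11, 9.77 and 9.83 in tNT lines 4, 5 and 6. It measured 6.16, 6.68 and 6.44 in tNT lines 1, 2 and 3, and 6.64 and 6.83 in NT lines 1 and 2. The values thus form an upper set of 3 lines and a lower set of 5, with 2.94 log2 units between the lowest of the upper set and the highest of the lower set. All 8 arrays were above background for its 1 probe, with bead intensities from 152.7 to 1282 before normalization. Because the platform annotation gives Atf4 no other probe, this level has no second measurement. The probe's sequence was not at hand, so it could not be checked against copies of the gene or strain differences. Whether either affects this level was not tested. The tNT mean was 8.16 ± 1.91 (SD, n = 6) and the NT mean 6.73 ± 0.14 (SD, n = 2). In order of level, lines 1 and 3 stood lowest, then NT line 1, tNT line 2 and NT line 2, and these 5 lay within 0.67 of each other, while line 4 stood highest and lines 5 and 6 lay within 0.06 of each other. Passage did not separate the sets, since lines 3 and 6 share the number 25 and were low and high.

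Chac1, which encodes an enzyme that degrades glutathione and is induced by ATF4, followed most closely. Its log2 intensities were 10.57, 10.29 and 10.19 in tNT lines 4, 5 and 6. They were 8.42, 8.99 and 8.54 in tNT lines 1, 2 and 3, and 8.81 and 9.13 in the NT lines. The lowest of lines 4 to 6 was 1.06 log2 units above the highest of the other lines, a distance that only 16 of the 8816 tested genes (0.181%) had at 1 unit or more.

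Trib3, a pseudokinase that binds ATF4 and limits its activity, also had its 3 highest values in these lines. It measured 7.33, 6.92 and 7.42 in tNT lines 4, 5 and 6, while lines 1, 2 and 3 had 6.46, 6.12 and 6.35 and the NT lines 6.20 and 6.71. The distance between the sets was 0.21, less than the 0.51 between the NT lines.

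The same arrangement, lines 4 to 6 above every other line, was found in 547 of all tested genes (6.20%). Among the 7 measured targets it held for 2, Chac1 and Trib3. No test was made of it, because Atf4's own values singled out these lines and because the genes were chosen with earlier results known.

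**Figure D1:**
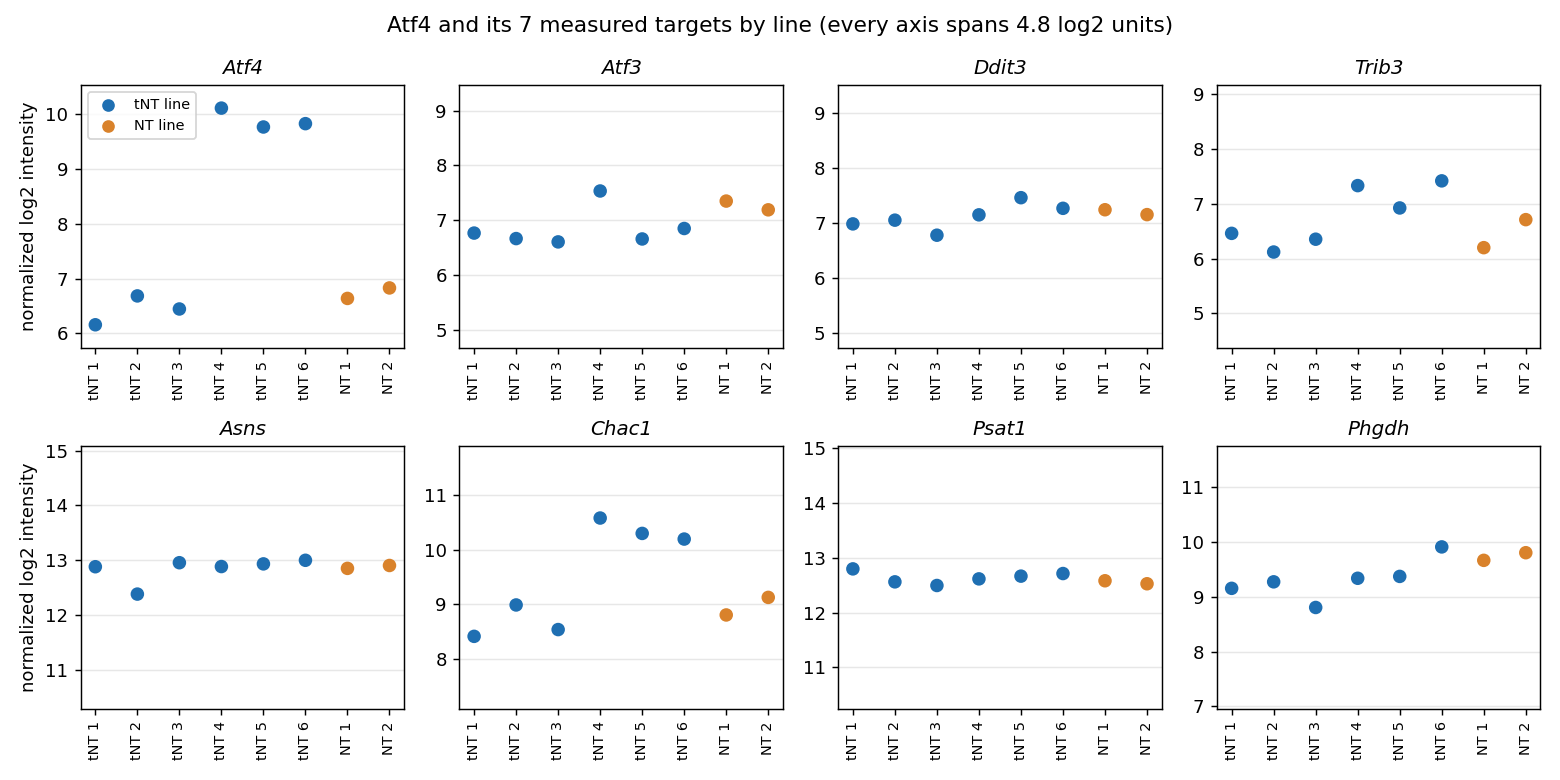
Normalized log2 intensity of Atf4 and its 7 measured targets in each line (blue, tNT lines; orange, NT lines; 1 array per line), on axes of equal span. Atf4 and Chac1 stand apart in tNT lines 4 to 6, Trib3 by 0.21, while Asns and Psat1 stay nearly level.

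The 2 other transcription factors among the targets did not follow. Ddit3, which encodes CHOP, a mediator of cell death in prolonged stress, had a brightest probe at 7.15, 7.46 and 7.27 in tNT lines 4 to 6. The other tNT lines measured 6.99, 7.05 and 6.78 and the NT lines 7.24 and 7.15, so line 4 lay below NT line 1 and the sets overlapped. Its second probe gave 6.51, 6.49 and 6.59 in lines 4 to 6, while tNT lines 1 to 3 gave 6.11, 6.14 and 6.38. The NT lines gave 6.40 and 6.55, so the overlap was with NT line 2 alone.

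Atf3, a related factor induced by ATF4, had its highest value, 7.53, in tNT line 4. Lines 5 and 6 measured 6.66 and 6.85, within or just above the 6.77, 6.66 and 6.60 of lines 1 to 3, and both lay below the 7.35 and 7.19 of the NT lines. Line 4 alone among the 3 thus had a high level of Atf3, and it is the line with the highest passage number, 29.

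The enzymes of amino acid synthesis among the targets did not have lines 4 to 6 on top by their brightest probes. Asns, which makes asparagine, measured 12.88, 12.93 and 13.00 in tNT lines 4 to 6, while lines 1 to 3 had 12.88, 12.38 and 12.95 and the NT lines 12.85 and 12.90. Line 2 was the low one, and the other 7 lines lay within 0.15 of each other. A second Asns probe put lines 4 to 6 above the rest by 0.04, and the remaining one overlapped.

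Psat1, the aminotransferase of serine synthesis, ranged from 12.50 to 12.80, with the highest value in tNT line 1. Phgdh, which takes the first step of that pathway, had 9.34, 9.37 and 9.91 in tNT lines 4 to 6. Lines 1 to 3 had 9.15, 9.27 and 8.80 and the NT lines 9.66 and 9.80, so lines 4 and 5 lay between the other tNT lines and the NT lines.

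Slc7a11 and Slc3a2 encode the paired subunits of the cystine and glutamate exchanger. The Slc7a11 probe was above background on 0 of 8 arrays and the Slc3a2 probe on 1 of 8, with bead intensities of 91.5 to 124 and 97.6 to 132. Their levels were therefore not measured here, and nothing about their direction can be read.

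The question of how tNT lines differ from NT lines could be tested for the 7 measured targets. None passed (limma, moderated test over all 8816 genes, Benjamini-Hochberg adjusted p from 0.377 to 0.934), and 0 of 7 had an unadjusted p under 0.05. Of all tested genes 164 passed (1.86%), with 0.896% higher and 0.964% lower in tNT lines, and an unadjusted p under 0.05 was reached by 9.36% with higher and 8.60% with lower means. Chac1 averaged 9.50 ± 0.96 (SD, n = 6) in tNT and 8.97 ± 0.23 (SD, n = 2) in NT lines, a log2 difference of 0.53 with a 95% interval from -0.76 to 1.83 (limma adjusted p = 0.684). Trib3 differed by 0.31 (interval -0.46 to 1.09, limma adjusted p = 0.692). Without 1 line the difference of Trib3 moved between 0.06 (without NT line 1) and 0.57 (without NT line 2), and that of Chac1 between 0.32 (without tNT line 4) and 0.75 (without tNT line 1).

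Phgdh and Atf3 had lower means in tNT lines, by -0.43 (interval -0.95 to 0.10, limma adjusted p = 0.385) and -0.42 (interval -0.94 to 0.09, limma adjusted p = 0.377). Ddit3, Asns and Psat1 differed by -0.08, -0.04 and 0.09. Their intervals reached no further than 0.47 from 0 in either direction. Over the 7 targets the median difference was -0.04, beside 0.01 over all tested genes. For Atf4 the means differed by 1.43, given without a test.

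**Figure D2:**
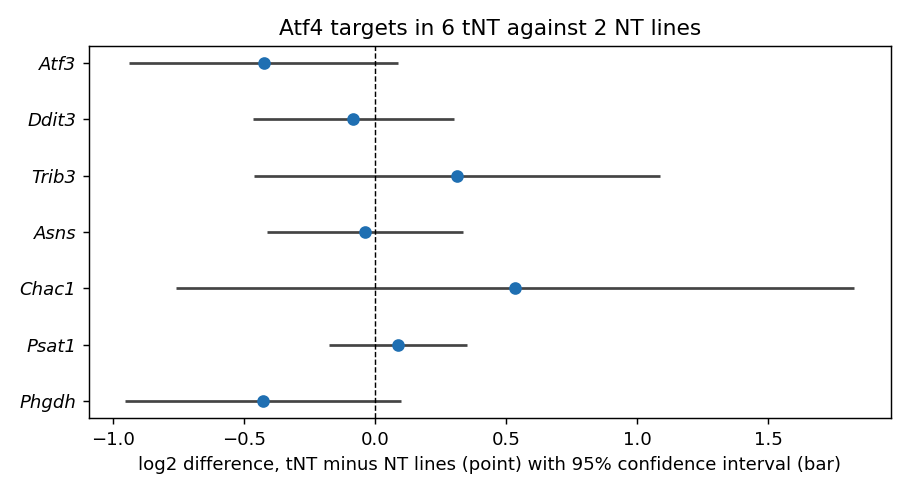
Log2 difference between 6 tNT and 2 NT lines for the 7 measured targets (points) with 95% confidence intervals (bars), and 0 as a dashed line. Every interval includes 0, and that of Chac1, which divides the tNT lines, is the widest, from -0.76 to 1.83.

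Passage was compared as a slope over the 6 tNT lines. None of the 7 targets passed (limma, adjusted p = 0.994 for each), as none of all tested genes did (0%), and 0 of the 7 against 4.44% of all genes had an unadjusted p under 0.05. The steepest slopes were 0.09 log2 units per passage for Chac1 (interval -0.06 to 0.24), 0.06 for Trib3 (-0.02 to 0.15) and 0.05 for Atf3 (-0.0040 to 0.10).

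A wider set of 54 known ATF4 targets, in 5 lists by role and with 9 of the 10 genes above among them, was measured for 44. Fgf21 and Aldh1l2 were above background on only 2 arrays each and Cars on 5. Lines 4 to 6 stood above every other line in 11 of these 44 (25%), beside the 6.20% of all tested genes, and in 9 of the 37 that are not among the 10 genes (24.3%). By the brightest probe of each gene, in none of the 44 did all 3 lines stand below, an arrangement found in 6.56% of all genes. Another probe of Wars had them below, at 8.15 to 8.36 against 8.37 to 8.65. Another probe each of Asns and Vegfa, whose brightest probes overlapped, had them above. The lists were chosen with earlier results known, so these shares are descriptions and no test was made of them.

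Of the feedback and transcription factor genes, 3 of 11 had lines 4 to 6 on top, beside 6.20% of all tested genes: Trib3, Jdp2 and Sesn2. Jdp2, a repressor of the AP-1 family, measured 7.16, 7.06 and 6.89 in tNT lines 4 to 6. Lines 1 to 3 had 6.50, 5.90 and 6.21 and the NT lines 5.78 and 5.81, so the 3 lines stood 0.40 above the rest. Its difference between all tNT and NT lines was 0.83 (limma adjusted p = 0.201). Sesn2, which restrains the growth kinase complex mTORC1 when leucine is scarce, stood above by 0.09, and its second probe showed the same order. Nupr1, a stress-induced chromatin protein, had its 2 highest values in lines 5 and 6, 10.79 and 10.78, while line 4 with 10.03 lay just under line 1 with 10.04.

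Among secreted and other stress genes the count was 4 of 9, beside the same 6.20% of all tested genes: Chac1, Vldlr, Stc2 and Herpud1. Vldlr, a lipoprotein receptor, had 7.41, 7.75 and 7.80 in lines 4 to 6 against 6.53 to 7.15 elsewhere, and its 2 other measured probes gave the same order. Herpud1, a membrane protein of the endoplasmic reticulum that helps to degrade misfolded proteins, had 10.62, 10.31 and 10.17 against 8.91 to 9.89, again with both probes. Stc2, a secreted glycoprotein, had 6.75, 7.29 and 6.82 against 6.28 to 6.61.

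Of the amino acid and one-carbon enzymes 2 of 9 had this order, beside 6.20% of all tested genes. Aldh18a1, which makes the precursor of proline, measured 9.87, 10.04 and 9.87 in lines 4 to 6 and 9.14 to 9.43 in the rest. Gpt2, a mitochondrial alanine aminotransferase, measured 8.34, 8.61 and 8.61, with the NT lines next at 7.91 and 8.14 and lines 1 to 3 at 7.49, 6.88 and 7.32. Of the transporters 1 of 5 did, the neutral amino acid carrier Slc1a4, by 0.14. Of the tRNA synthetases 1 of 10 did, Nars, by 0.04. For the transporters and synthetases a count of 1 is near the share of all genes.

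Below are the stretches around the motif in the promoters of the 4 genes outside the 10 that had lines 4 to 6 on top and a TGATGNAA match, with 26 bases on each side of the capitals (RefSeq, GRCm38.p6). Promoter windows were at hand for 34 of the 44 measured genes, too few for a comparison over the lists, which is void. The motif was in the windows of 14 of the 34, beside 2.74% of all tested genes with a window. These were 6 of 10 genes with lines 4 to 6 on top, Chac1 and Trib3 among them, and 8 of 24 without that order. The genes are known targets, sorted by lines that Atf4's own values singled out, so nothing is read from this split.
Vldlr, chr19:27216794-27216853, plus strand: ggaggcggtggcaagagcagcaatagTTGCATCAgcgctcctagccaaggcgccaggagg
Jdp2, chr12:85599357-85599416, plus strand: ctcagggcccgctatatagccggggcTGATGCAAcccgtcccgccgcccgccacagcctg
Herpud1, chr8:94386291-94386350, plus strand: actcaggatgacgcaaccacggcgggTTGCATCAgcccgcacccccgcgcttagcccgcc
Slc1a4, chr11:20332684-20332743, minus strand: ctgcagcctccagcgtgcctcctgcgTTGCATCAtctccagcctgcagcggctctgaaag
All 4 hold TGATGCAA, in Jdp2 along the gene and in the others on the opposite strand, as in Chac1.

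**Figure D3:**
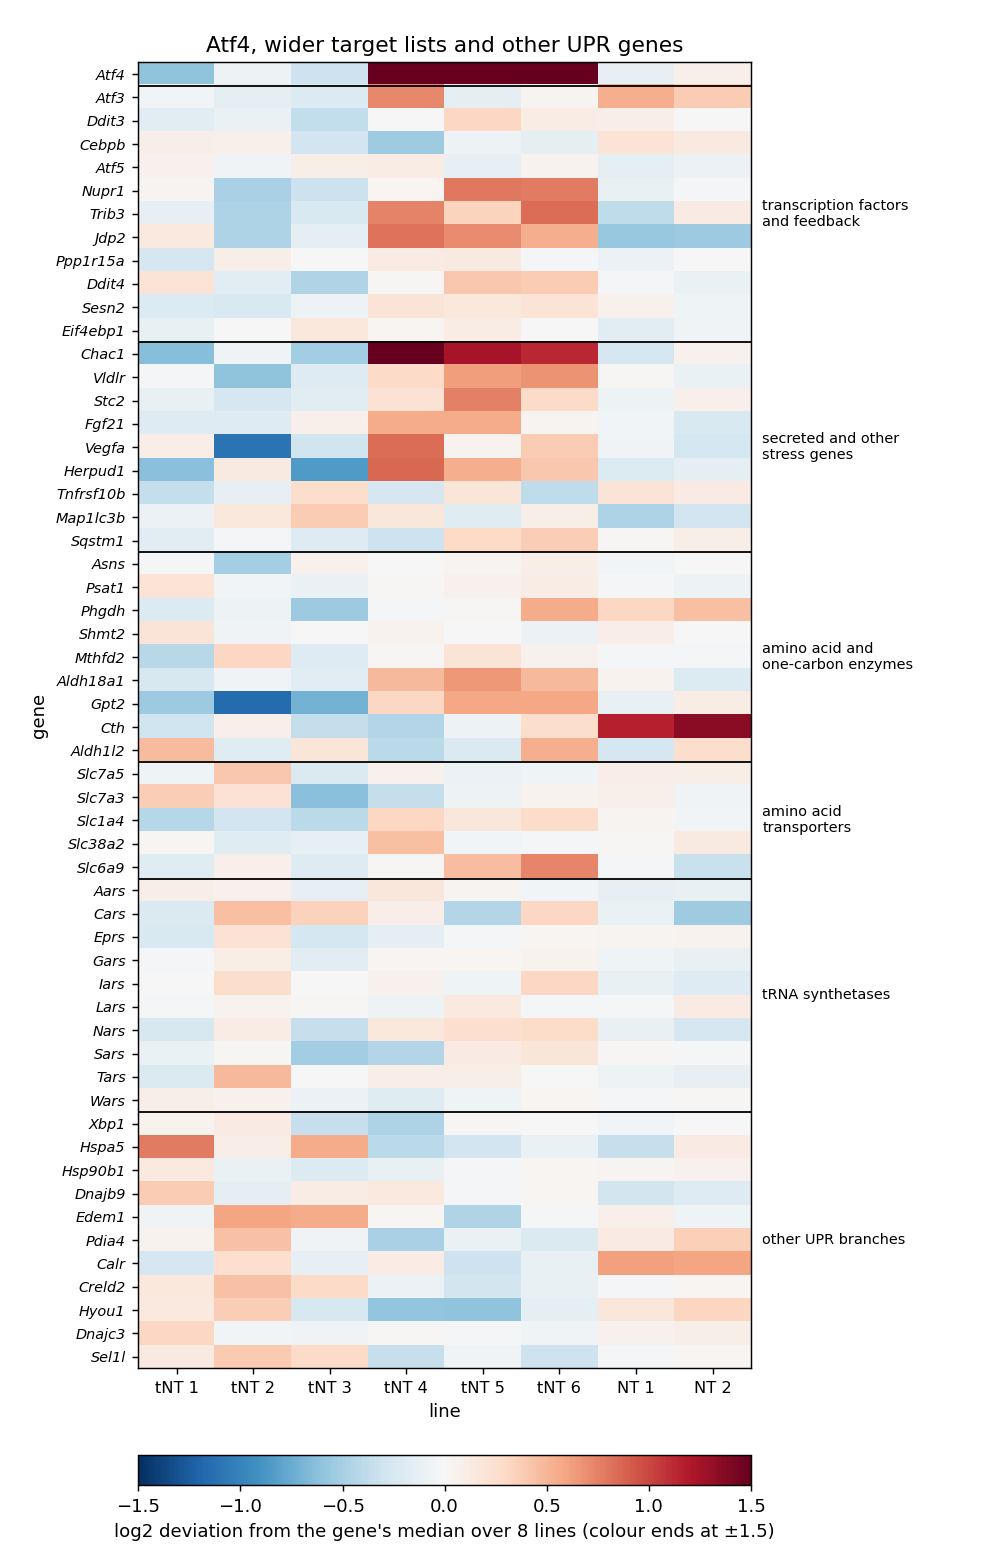
Log2 deviation of each gene from its median over the 8 lines (red higher, blue lower, colour ending at ±1.5) for Atf4, the 44 measured genes of the 5 target lists and 11 genes of other branches of the unfolded protein response (UPR). Lines 4 to 6 were on top in 3 of 11 genes of the first target list and in 4 of 9 of the second. The other lists had 2 of 9 enzymes, 1 of 5 transporters and 1 of 10 tRNA synthetases. Of all tested genes 6.20% had this order, so a count of 1 in so short a list is near the background. The lists were not tested against each other.

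Between tNT and NT lines, 1 of the 44 passed, and it was lower in tNT lines, where 0.964% of all genes were. Cth, whose enzyme makes cysteine from cystathionine, measured 6.84 ± 0.28 (SD, n = 6) in tNT and 8.24 ± 0.13 (SD, n = 2) in NT lines, 2.64-fold lower (limma adjusted p = 0.00893). Its values in tNT lines 4 to 6, 6.53, 6.91 and 7.24, overlapped those of lines 1 to 3, 6.68, 7.05 and 6.62, so Cth divided the lines by group and not with Atf4. The call was lost without NT line 1 (limma adjusted p = 0.123) or NT line 2 (limma adjusted p = 0.188). The median difference over the 44 was 0.07, and 26 had higher means in tNT lines. Those of smallest p after Cth were Map1lc3b, a protein of autophagosomes, at 0.46 (limma adjusted p = 0.159), and Jdp2.

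Genes that act before ATF4 were read in the same way, by transcript level only. Phosphorylation of eIF2 was not measured, so these levels do not show whether that step was active. Of 10 measured kinases, eIF2B subunits and other regulators of eIF2, lines 4 to 6 stood above the rest in 0 and below in 0, beside 6.20% and 6.56% of all genes, so that in a list of this size 0 is near the background. Between tNT and NT lines 0 passed (limma), and 2 had an unadjusted p under 0.05, also near the shares of all genes. These were Ppp1r15b, a subunit of the phosphatase that reverses eIF2 phosphorylation, at 0.42 (limma adjusted p = 0.241), and the kinase Eif2ak3, also called PERK, at 0.30 (limma adjusted p = 0.278).

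The other branches of the unfolded protein response, governed by ATF6 and XBP1, had 11 measured genes. Among them, Hspa5 was above background on only 2 arrays and Edem1 on 3, so little can be read from the order of their values. In 0 of the 11 genes did lines 4 to 6 stand on top, beside 6.20% of all genes. In 3 they stood below every other line, beside 6.56% of all genes. Sel1l, which works in degradation from the endoplasmic reticulum, had 7.85, 8.14 and 7.89 in lines 4 to 6 against 8.17 to 8.60. Its second measured probe, above background on 3 arrays, overlapped. Creld2 had 10.57, 10.38 and 10.55 against 10.63 to 11.10, and its second probe gave the same order. In the disulfide isomerase Pdia4 the highest of the 3 lines was 0.04 below the lowest of the rest. None of the 11 passed between tNT and NT lines (limma). An unadjusted p under 0.05 was reached by 1, beside 9.36% of all genes with higher and 8.60% with lower means. Calr, a calcium-binding chaperone, came nearest at -0.67 (limma adjusted p = 0.0683). In a list of 7 measured genes for NRF2, which shares Slc7a11 with ATF4 as a target, were Nfe2l2, the gene of NRF2 itself, and 6 of its targets. Lines 4 to 6 stood above or below the rest in 0 of the 7, beside 6.20% and 6.56% of all genes, and 0 had an unadjusted p under 0.05 between tNT and NT lines (limma), beside 9.36% and 8.60% of all genes. Counts of 0 in so short a list are near the background.

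Likeness to Atf4 was measured as Pearson's r over the 8 lines, as a description with no p. Atf4 falls into sets of 3 and 5 lines, so r chiefly states how a gene divides those sets, and no correlation is given within a set, since the larger one holds 5 lines. Among the 8816 tested genes Chac1 had rank 7 by r (0.984), counting Atf4 itself, and Trib3 rank 107 (0.894). Ddit3 had r = 0.649, and Asns, Phgdh, Psat1 and Atf3 had 0.345, 0.334, 0.280 and 0.221.

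The 10 genes most like Atf4, among named genes whose values spanned at least 1 log2 unit, were Cops8 (0.990), Tomm22 (0.986), Ciart (0.985), Thap4 (0.985), Olig1 (0.984), Chac1, Uap1 (0.983), Apex1 (0.980), Esd (0.978) and Psmb5 (0.977). Chac1 was the 1 member of the 5 target lists among them. Cops8 and Olig1 were above background on 3 arrays each, those of tNT lines 4 to 6, and passed the detection filter through these lines alone, so their r restates that division. The other 8 genes were above background on all 8 arrays. The 5 most opposite were Psmd8 (-0.989), 2210409E12Rik (-0.987), Gpd2 (-0.981), Zfp420 (-0.973) and Fam169b (-0.961). Zfp420 and Fam169b were above background on 5 arrays each. Their lowest values, 4.49 to 4.83 and 5.05 to 5.38, were those of tNT lines 4 to 6, so their r largely restates that division too.

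Of the 10 most like genes Ciart and Apex1 had a second measured probe. Ciart, a repressor of the circadian clock, kept the order with it, at 7.99, 7.57 and 7.79 in lines 4 to 6 and 6.57 to 6.89 elsewhere. Apex1, a DNA repair endonuclease, did not. Its brighter probe gave 11.07, 11.02 and 11.10 in lines 4 to 6 and 9.97 to 10.27 elsewhere, but its second gave 9.41, 9.07 and 8.91 there and 9.23 in both NT lines. Chac1, like Atf4, had 1 probe.

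Tomm22 lies close to Atf4 on chromosome 15, which is why Atf4's neighbours were read in gene order. Of the 10 measured genes on each side of Atf4, lines 4 to 6 stood above the rest in 1, Apobec3, by 0.05, and below in 2, Rps19bp1 and Adsl, by 0.07 and 0.12. The other 17 overlapped. Counts of 1 and 2 among 20 genes are near the 6.20% and 6.56% of all tested genes with these orders. The measured genes next to Atf4 are Mief1 on one side and Rps19bp1 on the other, with ranges over the 8 lines of 0.33 and 0.76, beside 3.95 for Atf4. The median range of the 20 was 0.43. Tomm22, a subunit of the channel that imports proteins into mitochondria, is the next measured gene beyond the 10 on Mief1's side, with 9.10, 8.89 and 8.69 in lines 4 to 6 and 6.25 to 6.60 in the rest. Of the remaining genes most like Atf4, Cops8, Thap4 and Uap1 lie on chromosome 1, Apex1, Esd and Psmb5 on chromosome 14, and Chac1, Ciart and Olig1 on chromosomes 2, 3 and 16.

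**Figure D4:**
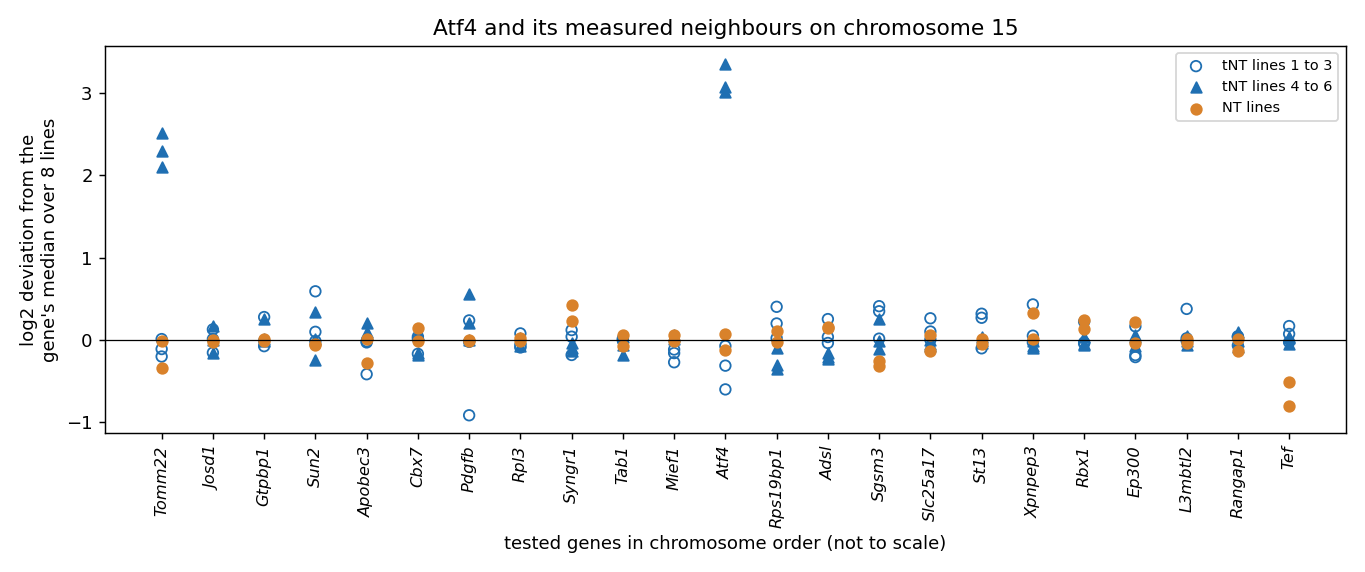
Log2 deviation from each gene's median over the 8 lines for Atf4, the 10 measured genes on each side in chromosome order and the next gene beyond on each side (triangles, tNT lines 4 to 6; open circles, tNT lines 1 to 3; orange, NT lines). Atf4 and Tomm22 stand far apart in lines 4 to 6, and the genes between them do not.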

How the data were processed

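RNA of 6 tNT and 2 NT lines was hybridised as biotin-labelled cRNA to 1 Illumina bead array each, per the labels. The deposited table lists, for every probe, the linear bead intensity of each line followed by its detection p-value, per the file headers. Its lowest intensities lie well above 0, so no background had been subtracted. The authors' deposited processed values are on a log2 scale, with the same median on every array (3.49), and how background was taken off is not stated in the sources used here. BeadStudio 3.2, RMA and lumi appear in the submitters' processing notes, without their roles. Columns were matched to lines by name, and no column was left out. No pair of arrays shared equal intensities for more than 1 probe, so none is a copy.

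Intensities were normalized with neqc (limma 3.58.1, R 4.3.3, offset 16). Testing required a detection p under 0.01 on 2 or more arrays, and the brightest such probe stood for its gene. Symbols came from the platform annotation, updated through a RefSeq table (GRCm38.p6) for 23962 of 23978 annotated probes. Groups and passage were fitted with lmFit and eBayes (2-sided, Benjamini-Hochberg, threshold 0.05). On simulated data among 8816 genes, the group comparison called 69 of 100 genes changed 2-fold and 94 of 100 changed 4-fold, with 13 false calls. For passage, 27 and 85 of 100 were called, also with 13 false calls. The simulated noise was independent between lines, with the spreads of the tNT lines shuffled over genes. In the simulated group comparison all tNT lines were shifted alike, so its counts do not cover genes that divide the tNT lines. Quantile normalization cannot show a change in total RNA per cell, and the few arrays set the precision.

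The members, lists and tests were chosen with earlier results of these data known. Named genes are the 10 members, the list genes past the threshold or, failing that, of smallest p, those with lines 4 to 6 on one side of all others, the 10 genes most like and 5 most opposite to Atf4, and 10 measured neighbours on each side. The fibroblast markers, Nupr1 and the second probes were named after their values were seen. So were Dppa5a, Zfp42 and Tdgf1, and the list genes named for being above background on few arrays. Alternatives were the authors' values, other background corrections, other detection filters, every probe, an intensity trend, array weights and leaving out each line. Summaries and figures used Python 3.11.15, pandas 2.3.3, scipy 1.17.1 and matplotlib 3.10.9.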

Additional observations from a re-analysis of the deposited data

Results flagged for a closer look

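For the measured members and list genes, 88 sets of values over the tNT lines were looked at, and 9 had a line far from the other 5 by Dixon's ratio at its 95% critical value, where chance marks about 1 in 20 independent sets. These sets share the same 6 arrays. Line 2 was the distant one in 6 of the 9. It was low for 2 of the 3 Asns probes (12.38, with the other tNT lines at 12.88 to 13.00, and 10.78, with the others at 11.18 to 11.36). On the remaining Asns probe it had 7.56, beside 7.59 in line 3. It was also low for Esrrb (12.85, others 13.40 to 13.69) and Nanog (11.97, others 12.42 to 12.64), and high for Eif2b2 (9.50, others 9.05 to 9.20) and the fibroblast marker Thy1 (9.69, others 8.70 to 9.07). Line 4 was high for Atf3 (7.53, others 6.60 to 6.85) and for the amino acid transporter Slc38a2 (11.20, others 10.57 to 10.78). Line 1 was high for the chaperone Dnajc3 (7.26, others 6.90 to 6.97). Atf4, Chac1 and Trib3 divide tNT lines 1 to 3 from lines 4 to 6. A ratio for 1 distant line is not made to mark such a division, so nothing is read from their absence among the 9.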

How the results depend on the processing

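No target among the members was called between tNT and NT lines, or by passage, under any alternative run, and the sign of a difference changed in 2 of 112 recomputed values, neither of them called. Not all of the 112 could change, since the intensity trend and the other detection filters left the differences of the targets as they were. Chac1 and Trib3 had tNT lines 4 to 6 on top under each of the 3 other normalizations. Keeping only genes detected on all arrays left their values unchanged, and leaving out tNT line 2 could not undo this order. Neither of these 2 alternatives was therefore a check of it. With every probe Asns joined Chac1 and Trib3. The 11 genes of the wider lists were the same 11 under the 3 other normalizations. Leaving out tNT line 2 could only add genes, and they were then 14, beside 7.69% of all genes. Leaving out line 2 here, and recounting the wider lists, were choices made with the data already seen. Between tNT and NT lines the 164 genes became 1381 with array weights and 6 to 582 without each line in turn, lowest without NT line 1 and highest without tNT line 2. Of the wider target lists 3 genes were called with array weights, and 0 to 1 without each line, with 0 without either NT line. Of the 10 genes most like Atf4, 4 remained with Spearman's rank correlation, which compares orders only, and 8 to 10 under the other alternatives. No paired analysis was possible because the labels give every sample the replicate number 1. The targets near background limit what can be read: Slc7a11 and Slc3a2 were not measured.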
